A study of Mus musculus with 20 samples.

Results

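Excitation-contraction coupling turns an action potential into a rise of calcium in the muscle fibre. The voltage sensor Cacna1s in the transverse tubule opens the release channel Ryr1 in the sarcoplasmic reticulum, the junctophilins Jph1 and Jph2 hold the facing membranes together, the calsequestrins Casq1 and Casq2 buffer the stored calcium beside triadin (Trdn), and the pumps Atp2a1 and Atp2a2 return it, with sarcolipin (Sln) as an inhibitor of the pump. Peaks of accessible chromatin around these 10 genes were described in the mouse myoblast line C2C12, whose cells fuse into muscle cells in culture, with or without the histone methyltransferase gene Setd2. An element was a merged peak region within 10 kb of the gene's span in GRCm38, and 93 of the 101352 regions of the series met that rule, holding 789 of its 787806 peaks. In the Setd2 KO libraries, 6 of the 10 genes (Ryr1, Cacna1s, Atp2a1, Atp2a2, Jph1 and Jph2) had fewer called elements than in WT, by 1.3 to 5.7 elements on average per library, where 14.8% of all genes tested had fewer. When lists were cut to their 20000 strongest peaks the same 6 genes had fewer elements, against 10.5% of all genes tested. Trdn had more (0.74% of all genes did), through its element 3 alone, and did not pass in the full lists. In the full lists no gene of the series, the 6 included, passed when 1 WT replicate or 1 KO line was left out. None passed either when libraries were blocked by replicate and line number.

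Chromatin was opened with a transposase (ATAC-seq) in WT and Setd2 KO cells. D0 cells had no medium label, and cells of D1 and D5 were either controls (CTL) or kept under methionine restriction (MR), which gave 10 groups of 2 libraries. Each WT group held replicates 1 and 2, and each KO group held 1 library of each of 2 KO lines, so the same lines recur in all 5 conditions. The labels do not say how the lines were made, whether each is a clone, what medium change marks D0, or whether libraries came from separate cultures, so p-values measure only the spread between these libraries. Read depth is unknown from the lists, which held 20847 to 69881 peaks except in KO line 1 at D5, with 644 peaks in CTL and 1881 in MR. A peak lay within 1 kb of an end of Setd2 in 18 libraries (10 WT, 8 KO), all but those 2 short lists, which does not measure the knockout itself. Of 7 myoblast markers 5 had a peak at a gene end, with none at Myf5 and Pax7. All 7 markers of differentiating muscle had one, in 2 libraries for Myh3 (both WT) up to 17 for Tnnt3 (10 WT, 7 KO). None of 3 endothelial markers had one, while Spi1 of 4 blood, Krt8 of 3 epithelial and Tubb3 and Snap25 of 3 neuronal markers did, in 3 to 18 libraries.

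The elements were spread unevenly. Casq2 and Jph2 had 17 each, Jph1 had 13, Cacna1s 12, Ryr1 and Atp2a1 9 each, Casq1 8, Trdn 5 and Atp2a2 3. Sln had none, as had 22.6% of the 21631 protein-coding genes. The region nearest to Sln lay 13.979 kb away, at chr9:53836102-53836272, and was called in 4 WT and 2 KO libraries. Per 100 kb of searched sequence Casq1 (26.7) and Atp2a1 (24.2) were the densest, against a median of 5.67 over all genes. Trdn, the longest of the 10 at 393227 bp, had 1.21. The elements had a median length of 181 bp (48 to 1587), against 172 bp over all regions, and 19.4% of them were seen in 1 library, against 20.4% of all regions. No KO library held 26 of the 93 (28.0%, against 21.8% of all regions), and no WT library held 12 (12.9%, against 20.1%). Elements are numbered along the chromosome within each gene. The gene table gives no exons, so exon or intron is not stated.

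The sequences before the start of 4 genes are shown because these starts differed in their peaks: those of Cacna1s and Casq2 had a peak only in WT libraries, that of Ryr1 had peaks in WT and KO, and that of Atp2a1 almost none. Each run is the 250 bases before the RefSeq start in GRCm38.p6, read 5′ to 3′ on the gene's strand, with capitals marking the E-box CANNTG, the motif of MyoD and related factors.
Cacna1s, chr1:136052561-136052810, plus strand: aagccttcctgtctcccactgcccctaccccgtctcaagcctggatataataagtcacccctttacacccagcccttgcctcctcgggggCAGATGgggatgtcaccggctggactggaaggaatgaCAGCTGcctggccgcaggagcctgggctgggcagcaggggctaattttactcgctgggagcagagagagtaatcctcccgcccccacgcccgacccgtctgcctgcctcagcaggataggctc
Casq2, chr3:102086165-102086414, plus strand: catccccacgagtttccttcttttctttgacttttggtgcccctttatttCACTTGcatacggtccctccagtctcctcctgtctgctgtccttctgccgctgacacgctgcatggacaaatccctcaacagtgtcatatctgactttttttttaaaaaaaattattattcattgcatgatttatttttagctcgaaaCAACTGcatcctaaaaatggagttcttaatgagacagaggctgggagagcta
Ryr1, chr7:29125152-29125401, minus strand: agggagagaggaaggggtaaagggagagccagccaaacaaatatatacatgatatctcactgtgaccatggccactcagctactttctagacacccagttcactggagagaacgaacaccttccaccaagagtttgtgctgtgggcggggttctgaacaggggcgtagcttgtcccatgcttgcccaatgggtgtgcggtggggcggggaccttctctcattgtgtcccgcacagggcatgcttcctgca
Atp2a1, chr7:126463074-126463323, minus strand: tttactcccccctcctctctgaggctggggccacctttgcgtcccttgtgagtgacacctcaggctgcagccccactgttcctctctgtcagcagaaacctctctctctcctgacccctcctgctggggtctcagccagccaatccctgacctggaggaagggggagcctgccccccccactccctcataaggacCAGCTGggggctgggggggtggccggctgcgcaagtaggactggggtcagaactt
The RefSeq table held windows for 6 members, and for Jph1, Trdn, Sln and Atp2a2 either end of the span was used in place of the start. CANNTG, searched on both strands, was in 66.2% of 32851 windows of this length. The form CAGCTG, a subset of it, was in 13% of windows and in those of Cacna1s (123 bases before the start), Casq1 (195), Jph2 (9, or 29 from its other start) and Atp2a1 (55). Cacna1s also had CAGATG 160 bases before its start, and on the minus strand CATTCC, the TEAD motif, at 130 (12.6% of windows). The Casq2 window had CACTTG at 200 and CAACTG at 52, and the Ryr1 window had no E-box. The MEF2 consensus (0.508% of windows) and the CArG box (1.47%) were in none of the members' windows.

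Over all 10 genes, WT libraries held more elements than KO libraries at each day once the lists had equal length, apart from the 2 short lists, which stayed at 644 and 1881 peaks. In the 20000 strongest peaks, the WT libraries (replicates 1 and 2) held 22 and 20 elements at D0, 28 and 27 at D1 CTL, 25 and 23 at D1 MR, 32 and 34 at D5 CTL and 31 and 33 at D5 MR. The KO libraries (lines 1 and 2) held 14 and 16, 22 and 15, 16 and 14, 0 and 10, and 1 and 16. No KO library reached the WT libraries of its own condition. In the full lists, KO line 1 overlapped WT at D0 and D1 CTL: 39 and 46 in WT against 45 and 23 in KO at D0, 61 and 50 against 53 and 37 at D1 CTL, 64 and 52 against 42 and 33 at D1 MR, 34 and 34 against 0 and 18 at D5 CTL, and 54 and 53 against 1 and 17 at D5 MR. Per 1000 peaks of the list, WT libraries held 0.902 to 1.10 elements at D0 and D1 and 1.35 to 1.63 at D5. KO libraries held 0.708 to 0.937 at D0 and D1, where line 2 at D1 MR was above both WT libraries (0.916 and 0.902), and 0 to 0.771 at D5.

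**Figure D1:**
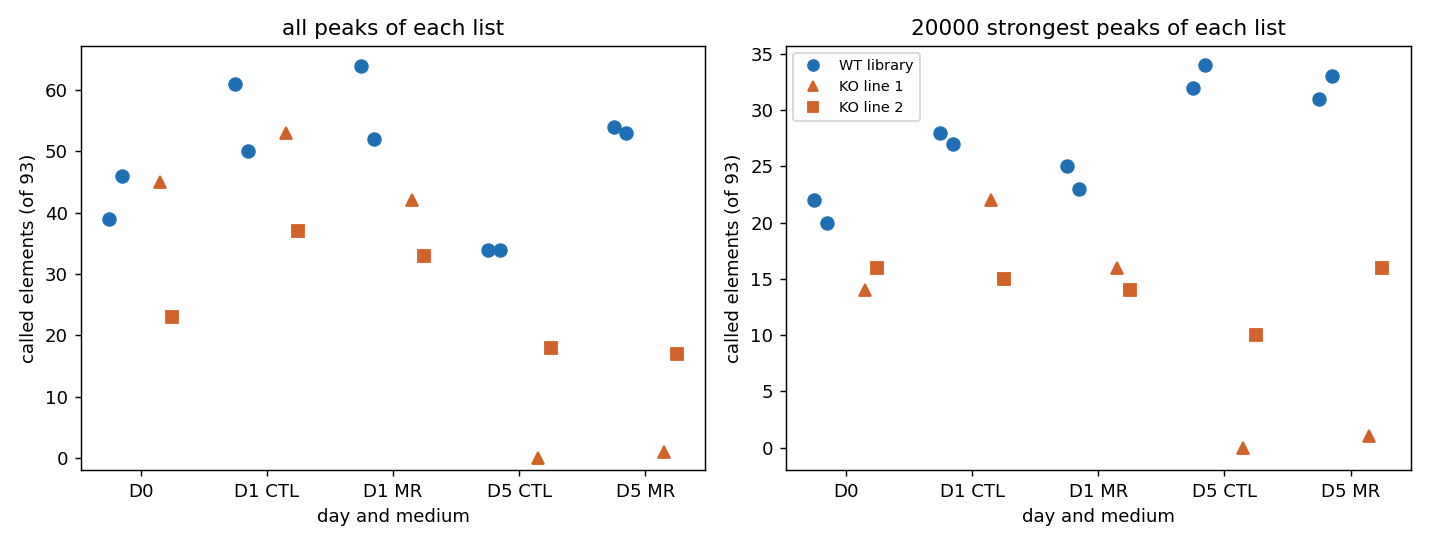
Number of the 93 elements called in each library (y axis) by day and medium (x axis), for all peaks of a list (left) and for its 20000 strongest peaks (right). Each point is 1 library: circles WT, triangles KO line 1, squares KO line 2. On the right every KO point lies under both WT points of its condition.

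Genotype was tested within the 5 conditions by exact permutation of labels, two-sided, with Benjamini-Hochberg adjustment over all features that could reach p of 0.05. By number of called elements per gene, 6 of 9 tested members passed a permutation adjusted p of 0.05, all with fewer elements in KO, against 15.7% of 12318 genes tested (14.8% with fewer, 0.885% with more), and 7 had an unadjusted p under 0.05, against 36%. The median difference over the 9 was −2.8 elements, against −0.7 over all genes. By single elements, 9 of 25 testable ones passed, all called less often in KO, against 18.8% of 18700 regions (16.1% less often, 2.73% more often), and 21 of the 25 had an unadjusted p under 0.05, against 50.8%. Their median difference in the share of libraries was −0.6, against −0.3. With equal lists of 20000 peaks, 11 of 21 testable elements passed, 10 less often and 1 more often in KO, against 15.7% of 10778 regions (12.6% less often, 3.04% more often). By gene, 7 of 9 passed with equal lists, 6 with fewer elements and Trdn with more, against 11.2% of 8512 genes (10.5% with fewer, 0.74% with more).

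These counts change with the libraries used. Leaving out a WT replicate or KO line also leaves 243 arrangements in place of 7776, which raises the smallest p that can be reached. Without WT replicate 1, WT replicate 2 or KO line 2, no member element and no region of the series passed (10, 12 and 12 member elements at an unadjusted p under 0.05), and without KO line 1 the count was 11 of 20, against 24.7% of regions. By gene, leaving out any of these 4 gave 0 (5 to 6 members at an unadjusted p under 0.05), and again no gene of the series passed. The KO libraries are the same 2 lines in every condition, which the permutation does not use. A block by replicate and line number pairs WT with KO libraries by number alone. With replicate and line number as a block, 0 of 9 genes and no gene of the series passed (adjusted p = 0.0674 for each of the 6 by permutation, 7 members at an unadjusted p under 0.05), while 17 of 18 elements did, against 66.6% of regions. Without the short D5 lists of KO line 1, the 9 elements became 3 (Cacna1s element 4, Casq2 element 4 and Atp2a2 element 3), against 11.5% of all regions, and the 6 genes became 4, with Cacna1s (adjusted p = 0.0627) and Jph2 (adjusted p = 0.0581) no longer past the threshold by this permutation test. With equal lists and without those libraries 12 of 20 elements passed, 10 less often and 2 more often in KO, against 28.0% of regions. Without all D5 libraries 0 elements passed of 2 testable (1 at an unadjusted p under 0.05), against 18.8% of regions. By gene 0 of 6 passed there (3 at an unadjusted p under 0.05), and no gene of the series did. Ryr1 and Atp2a1 had the lowest p that this permutation allows (0.00926), with an adjusted p of 0.107.

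**Figure D2:**
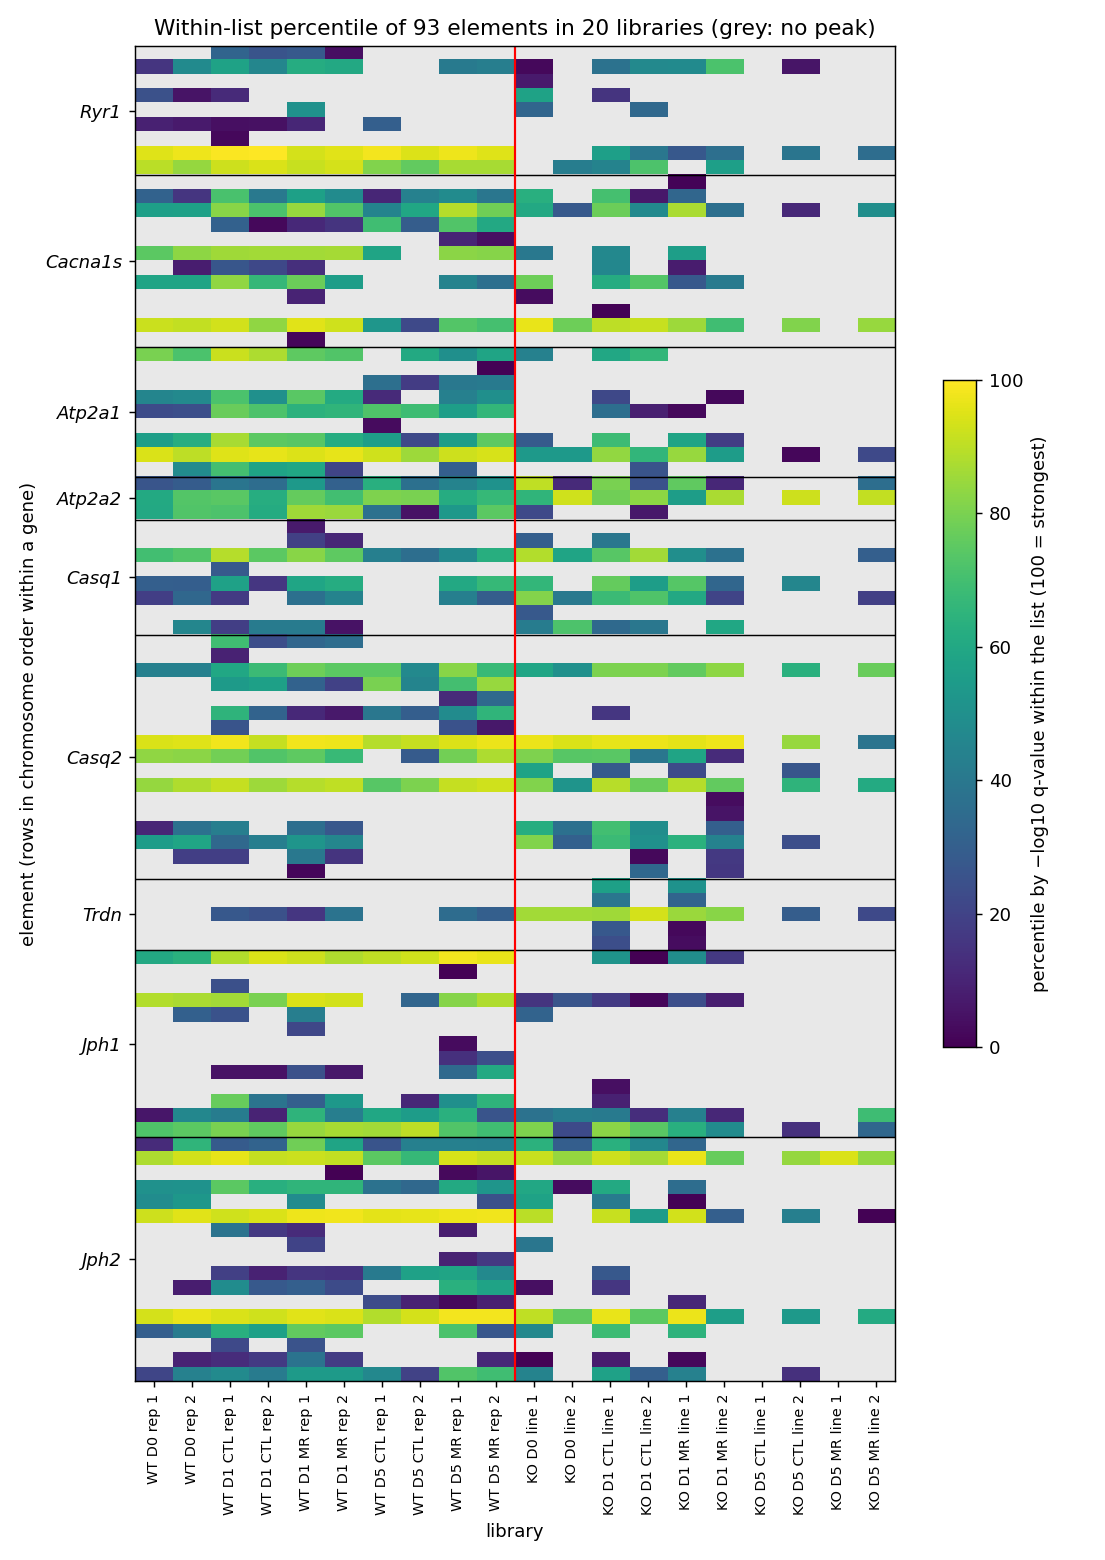
Each row is 1 of the 93 elements, grouped by gene, and each column 1 library, with WT left of the red line and KO right of it. Colour gives the percentile of the strongest overlapping peak within its list by −log10 q-value (100 is the strongest) and grey means no peak: the near-empty columns are KO line 1 at D5, and Ryr1 elements 8 and 9 are brighter in WT than in KO.

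Cacna1s, the voltage sensor, had 12 elements, and WT and KO differed at its start. Element 4, chr1:136052385-136052856, covered the start and the window printed above. It was called in 8 of 10 WT libraries, at D1 and D5 but not at D0, and in no KO library (permutation adjusted p = 0.0353). In equal lists it was in 4 WT and 0 KO libraries, which could not reach the threshold. Its percentile within the list, by the authors' −log10 q-value, was 31.2 and 1.98 at D1 CTL, 11.6 and 15.2 at D1 MR, 69.3 and 29.5 at D5 CTL, and 72.8 and 60.3 at D5 MR. Such percentiles describe a list, and across lists of different lengths they show no change. Among the 20000 strongest peaks, Cacna1s element 6, 13572 bp inside the gene at chr1:136066378-136067020, was in 9 WT and 0 KO libraries (permutation adjusted p = 0.0267). Called in the most libraries, the 18 other than the short lists, were element 11, chr1:136126963-136127209, 7141 bp past the gene and 4181 bp from an end of Kif21b, and element 3, chr1:136051536-136051797, 1009 bp before the start and 166 bp from an end of Ascl5. Their median percentiles were 87.1 in WT and 84.9 in KO for element 11, and 72.2 and 48.6 for element 3.
Per library, Cacna1s had 5 and 6 called elements in WT at D0, 7 and 7 at D1 CTL, 9 and 6 at D1 MR, 5 and 4 at D5 CTL and 7 and 7 at D5 MR. KO lines 1 and 2 had 6 and 2, 7 and 4, 7 and 3, 0 and 2, and 0 and 2. Line 1 lay within the WT values at D0 and D1, and line 2 lay under them throughout. The mean difference was −3.0 elements (permutation adjusted p = 0.0422).

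Ryr1, the calcium release channel, had 2 elements at or beside its start that were in fewer KO than WT lists of equal length. Element 8, chr7:29123646-29124427, lies 752 bp inside the gene. Its percentile was 95.3 and 97.6 in WT at D0, 99.3 and 99.7 at D1 CTL, 93.7 and 95.4 at D1 MR, 98.2 and 94.6 at D5 CTL, and 97.6 and 95.2 at D5 MR. In KO it had no peak at D0, and percentiles of 56.6 and 39.6 at D1 CTL, 27.5 and 36.6 at D1 MR, and, in line 2 alone, 38.9 and 35.6 at D5. All WT values lay above all KO values, in lists of different lengths. Element 9, chr7:29125110-29125302, covers the gene start. It was called in all 10 WT libraries (percentiles 76.1 to 94.2) and in 4 KO libraries (42.5 to 72.1).
By calls in the full lists neither passed the permutation test: element 8 could not reach the threshold, and element 9 had an adjusted p of 0.0507. Among the 20000 strongest peaks, element 8 was in 10 WT and 2 KO libraries (permutation adjusted p = 0.0292) and element 9 in 10 WT and 3 KO libraries (adjusted p = 0.0443). The number of called Ryr1 elements was 5 and 5 in WT at D0, 7 and 5 at D1 CTL, 6 and 4 at D1 MR, 3 and 2 at D5 CTL, and 3 and 3 at D5 MR. In KO it was 4 and 1, 4 and 4, 2 and 3, 0 and 2, and 0 and 1. The KO values lay under the WT values in each condition except D5 CTL, where line 2 equalled the lower WT library. The mean difference was −2.2 elements (permutation adjusted p = 0.0209).

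**Figure D3:**
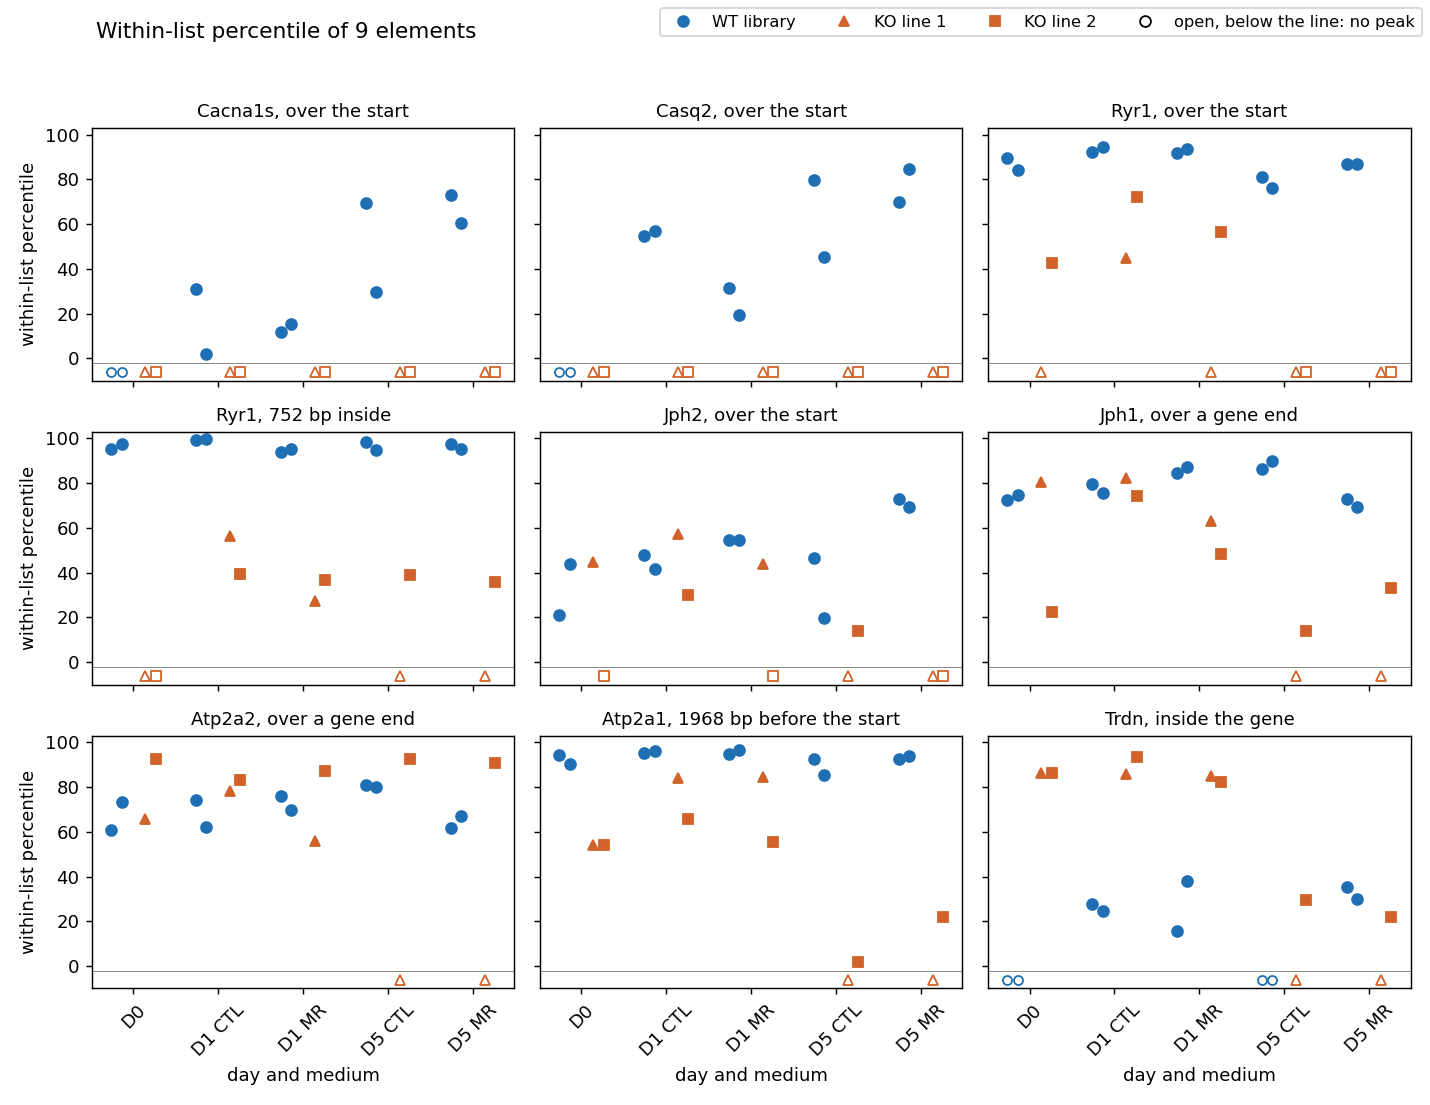
Within-list percentile (y axis) of 9 elements by day and medium (x axis), 1 point per library: circles WT, triangles KO line 1, squares KO line 2. Open points below the line mark libraries with no peak. Cacna1s and Casq2 have no KO point above the line at their starts, Ryr1 element 8 is higher in every WT library than in any KO library, and Trdn element 3 is higher in KO at D0 and D1.

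Atp2a1, the calcium pump of fast fibres, had elements on both sides of its start but almost none over it. Element 6, 92 bp before the start, was called in 1 library, WT D5 CTL replicate 1. The strongest was element 8, chr7:126465071-126465982, 1968 bp before the start and 1011 bp from an end of Sh2b1. Its percentile was 85.5 to 96.4 in the 10 WT libraries, and in KO 54.0 and 54.2 at D0, 83.9 and 65.6 at D1 CTL, 84.7 and 55.4 at D1 MR, and in line 2 1.76 at D5 CTL and 22.0 at D5 MR. Every KO value was under every WT value, in lists of different lengths. Elements 5 and 4, inside the gene near the start, were called less often in KO: element 5, chr7:126461662-126461854, in 10 WT and 3 KO libraries (permutation adjusted p = 0.0412), and element 4, chr7:126461138-126461318, in 9 WT and 2 KO libraries (adjusted p = 0.0487). In equal lists element 5 was in 7 WT and 0 KO libraries (permutation adjusted p = 0.0403), and element 4, in 4 and 0, could not reach the threshold. Element 3, chr7:126459038-126459522, 3581 bp inside the gene, was called in the 4 WT libraries of D5 (percentiles 36.5, 17.7, 40.2 and 41.1) and in no other, a pattern too sparse for the test.
Atp2a1 had 5 or 6 called elements in WT at D0, D1 and D5 CTL and 7 in each library at D5 MR. In KO lines 1 and 2 it had 3 and 1 at D0, 5 and 4 at D1 CTL, 3 and 3 at D1 MR, 0 and 1 at D5 CTL and 0 and 1 at D5 MR. The groups did not overlap in any condition, though KO line 1 at D5 had the short lists. How many genes of the series separate in this way is not given, here or for the other members. Of the counted elements, element 1 overlaps Rabep2 and element 9 overlaps Sh2b1. The mean difference was −3.9 elements (permutation adjusted p = 0.0191).

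Atp2a2, the pump of slow and cardiac muscle and of non-muscle cells, had 3 elements. Element 2, chr5:122501176-122502762, covers an end of the gene and is the longest of the 93. It was called in 10 WT libraries (percentiles 60.8 to 80.8) and 8 KO libraries. KO line 2 had 92.7 at D0, 83.0 and 87.1 at D1, and 92.3 and 90.9 at D5, and line 1 had 65.6, 78.4 and 55.8 at D0, D1 CTL and D1 MR, in lists of different lengths. Element 3, chr5:122509729-122509897, lies 7504 bp outside the gene. It was called in 10 WT libraries (percentiles 4.95 to 85.7) and in 2 KO libraries, line 1 at D0 (21.9) and line 2 at D1 CTL (6.47), with an adjusted p of 0.0353 by permutation. In equal lists it was in 10 WT and 0 KO libraries (permutation adjusted p = 0.0243). All 3 elements were called in every WT library, against 0 to 3 in KO libraries, a mean difference of −1.3 (permutation adjusted p = 0.0287).

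Casq1, the calsequestrin of fast fibres, gave no call for genotype. None of its 8 elements overlapped the 250 bases before its start. The nearest, element 6, chr1:172220501-172220728, lay 606 bp before the start and was called in 7 WT libraries (percentiles 17.2 to 44.8) and 7 KO libraries (19.1 to 81.4). In the 20000 strongest peaks it was in 0 WT and 6 KO libraries, with an adjusted p of 0.0580, and of 0.0320 without the short lists, by permutation (an element singled out after its values were seen). The element called most often, number 3, chr1:172206197-172206889, overlaps an end of Pea15a. The gene had 3 and 4 called elements in WT and 6 and 3 in KO at D0, 5 and 3 against 5 and 4 at D1 CTL, 6 and 5 against 3 and 4 at D1 MR, 1 and 1 against 0 and 1 at D5 CTL, and 3 and 3 against 0 and 2 at D5 MR. The mean difference was −0.6 (permutation adjusted p = 0.516). With equal lists its sign changed, to +0.5 (permutation adjusted p = 0.523). Without the short lists as well it was +0.8 (permutation adjusted p = 0.0659).

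Casq2, the calsequestrin of slow and cardiac muscle, resembled Cacna1s at its start. Element 4, chr3:102086253-102086529, covers the start and much of the printed window. It had no peak in WT at D0, and percentiles of 54.6 and 56.7 at D1 CTL, 31.4 and 19.4 at D1 MR, 79.8 and 45.1 at D5 CTL, and 70.0 and 84.5 at D5 MR. No KO library had it (8 WT against 0 KO libraries, permutation adjusted p = 0.0353). In equal lists it was in 5 WT and 0 KO libraries, with a permutation adjusted p of 0.0814. Element 6, chr3:102095524-102095835, 9109 bp inside, was likewise absent at D0 and was called in 8 WT libraries and in KO line 1 at D1 CTL (permutation adjusted p = 0.0412). In equal lists it was in 3 WT and 0 KO libraries, which could not reach the threshold.
Elements 3, 8 and 11 of Casq2 were its most often called, in 18 libraries each. Element 8, chr3:102101542-102101788, 15127 bp inside, had percentiles of 88.9 to 98.0 in WT and 84.7 to 97.6 in KO, apart from 38.4 in line 2 at D5 MR. Casq2 had 6 and 7 called elements in WT and 7 and 6 in KO at D0, 12 and 8 against 8 and 8 at D1 CTL, 11 and 10 against 6 and 10 at D1 MR, 5 and 6 against 0 and 5 at D5 CTL, and 8 and 8 against 0 and 3 at D5 MR. The mean difference was −2.8, with a permutation adjusted p of 0.0783.

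Trdn, which links calsequestrin to the release channel, was the only tested member with more called elements in KO on average in the full lists. Its element 3, chr10:33179708-33180267, inside the gene and 96225 bp from its nearer end, had no peak in WT at D0 and percentiles of 86.3 and 86.1 in KO. At D1 CTL the WT libraries had 27.5 and 24.7 and the KO libraries 85.7 and 93.5, and at D1 MR 15.8 and 38.2 against 84.9 and 82.3. At D5 WT had no peak in CTL and 35.2 and 30.1 in MR, and KO line 2 had 29.4 and 22.0. At D0 and D1 every KO value was above every WT value, and at D5 MR it was not, in lists of different lengths. In the 20000 strongest peaks element 3 was in 0 WT and 7 KO libraries (permutation adjusted p = 0.0403, and 0.0250 without the short lists). In the full lists its calls, 6 WT and 8 KO, could not reach the threshold. The other 4 Trdn elements were called only in KO line 1 at D1, in CTL and in MR, including element 1, chr10:33083090-33083202, 281 bp outside an end of the gene. By elements per gene the difference was +1.0 with a permutation adjusted p of 0.287, and with equal lists +0.7 with an adjusted p of 0.0419. In equal lists element 3 was the only Trdn element called, so the gene result repeats that of the element.

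**Figure D4:**
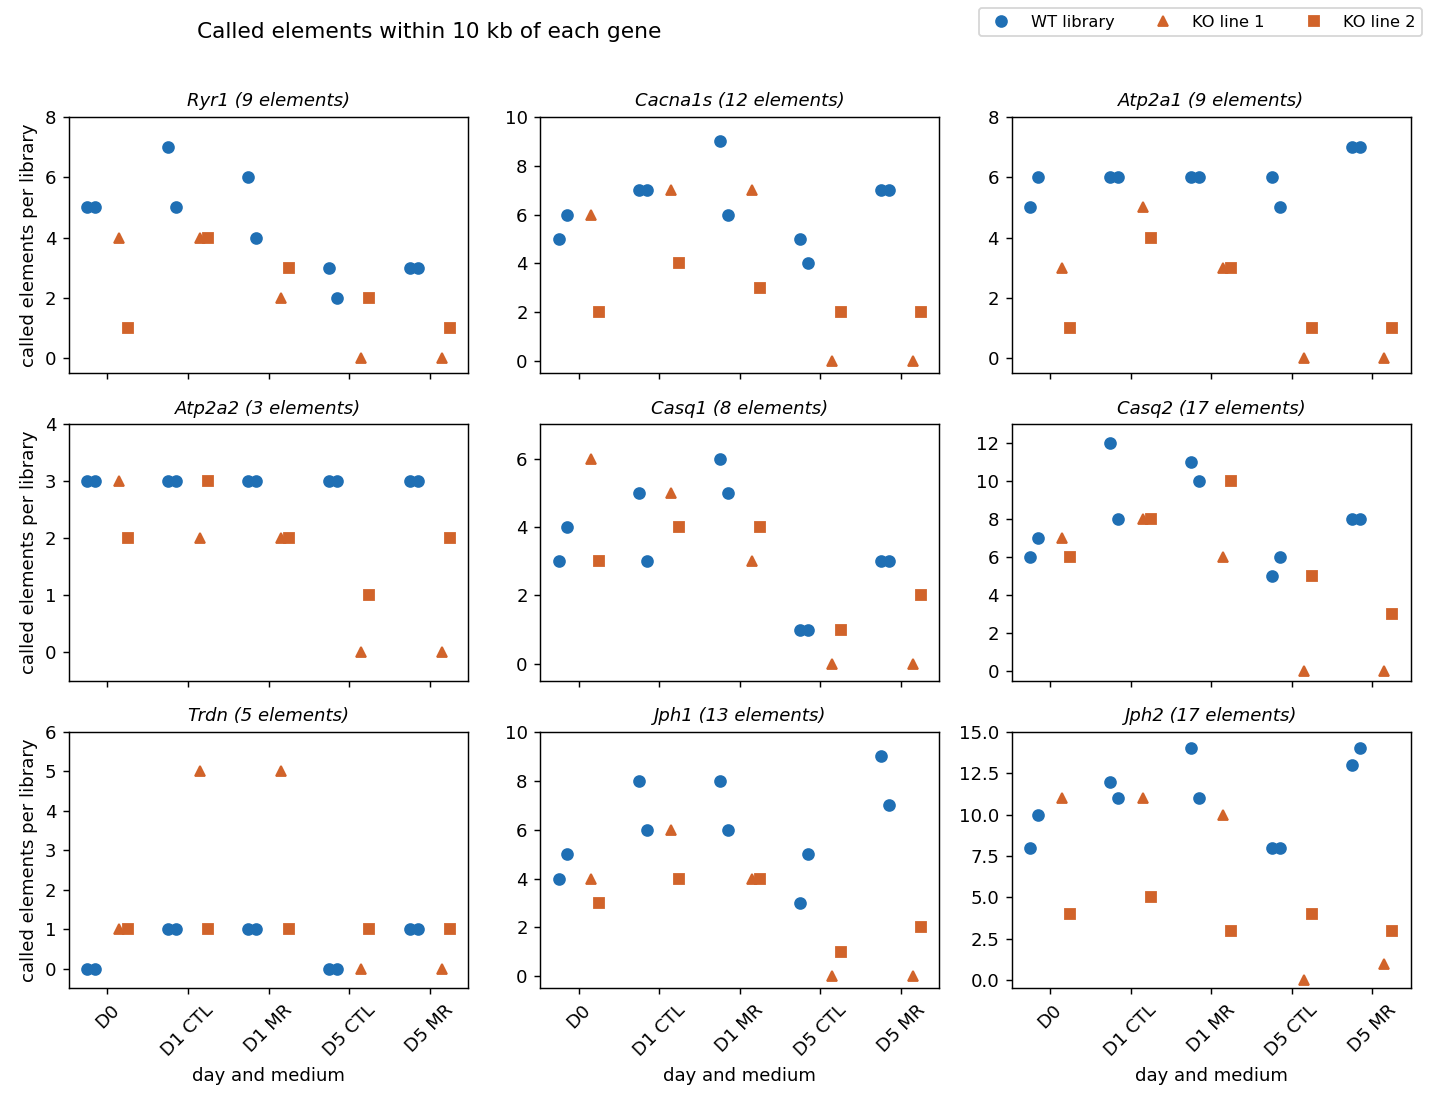
Called elements within 10 kb of each of 9 genes (y axis, 1 panel per gene, Sln has none) by day and medium (x axis). Each point is 1 library: circles WT, triangles KO line 1, squares KO line 2. KO points lie below WT points for Atp2a1 in every condition, and above them for Trdn at D0.

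The junctophilins, which anchor the reticulum to the transverse tubule, both had fewer elements in KO. For Jph1, element 1, chr1:16961303-16961698, had percentiles of 60.4 and 63.6 in WT at D0, 88.3 and 94.3 at D1 CTL, 92.5 and 88.2 at D1 MR, 90.2 and 92.7 at D5 CTL and 98.2 and 96.6 at D5 MR. In KO it was called only at D1, with 51.7 and 0.274 in CTL and 48.9 and 16.4 in MR, all under the WT values (10 WT against 4 KO libraries, permutation adjusted p = 0.0493). In equal lists it was in 10 WT and 0 KO libraries (permutation adjusted p = 0.0243). Jph1 element 4, chr1:16996695-16996907, was in 9 WT and 0 KO of the equal lists (permutation adjusted p = 0.0267), though in the full lists it was called in all 6 KO libraries of D0 and D1 at percentiles of 1.93 to 26.3. Element 9, chr1:17054013-17054201, was called in 6 WT libraries, at D1 and D5 MR, and in no KO library (permutation adjusted p = 0.0493). With equal lists the numbers were 1 WT and 0 KO libraries, which could not reach the threshold. Element 13, chr1:17097461-17098135, covers an end of the gene and was called in 18 libraries.
Jph1 had 4 and 5 called elements in WT at D0, 8 and 6 at D1 CTL, 8 and 6 at D1 MR, 3 and 5 at D5 CTL and 9 and 7 at D5 MR. In KO it had 4 and 3, 6 and 4, 4 and 4, 0 and 1, and 0 and 2. The groups touched at D0 and D1 CTL and did not overlap at D1 MR and D5. The difference was −3.3 (permutation adjusted p = 0.0249).
For Jph2, element 10, chr2:163363257-163363526, was called in the 8 WT libraries of D1 and D5 and in KO line 1 at D1 CTL (permutation adjusted p = 0.0412). With equal lists the call was in 3 WT and 0 KO libraries and could not reach the threshold. The start element, number 17, chr2:163397952-163398501, was called in 10 WT libraries (percentiles 19.6 to 72.8) and 5 KO libraries (14.1 to 57.3), with a permutation adjusted p of 0.0820. Element 2, chr2:163344982-163345462, was the element called in the most libraries, 19 of 20, and the only member element in either short list (percentile 94.4 in KO line 1 at D5 MR). Jph2 had 8 and 10 called elements in WT against 11 and 4 in KO at D0, 12 and 11 against 11 and 5 at D1 CTL, 14 and 11 against 10 and 3 at D1 MR, 8 and 8 against 0 and 4 at D5 CTL, and 13 and 14 against 1 and 3 at D5 MR. The mean difference was −5.7 (permutation adjusted p = 0.0352), and line 2 was the lower KO line at D0 and D1.

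Ranks were also taken over 1 set of regions that is the same in every library. Of 11144 regions called in all 18 libraries outside the short lists, 10 were member elements, and 4 of them ranked lower in KO by the same permutation test, none higher, against 22.2% of the set (11% lower, 11.2% higher), and 5 had an unadjusted p under 0.05, against 36.4%. Atp2a1 element 8 had a lowest, median and highest rank of 62.7, 79.4 and 86.7 in the 10 WT libraries and of 0.126, 18 and 48.1 in the 8 KO libraries. The groups did not overlap, and the stratified difference was −61.4 points (permutation adjusted p = 0.00834). Jph2 element 13, chr2:163386555-163387350, had 74.0, 78.5 and 93.9 in WT and 17.3, 44.9 and 87.7 in KO, a difference of −37.4 (permutation adjusted p = 0.0319). Jph1 element 13 had 26.1, 35.4 and 83.0 in WT and 1.87, 14.7 and 32.6 in KO, a difference of −27.0 (permutation adjusted p = 0.0115). Its largest gap was at D5 CTL, with 75.4 and 83.0 in WT against 1.87 in KO line 2, the only KO library there. Casq2 element 11, chr3:102112107-102112757, had 48.8, 58.4 and 76.1 in WT and 23.3, 37.6 and 59.8 in KO, a difference of −23.1 (permutation adjusted p = 0.0171).
The 2 KO lines were not alike at all of these, though line 1 was compared at D0 and D1 alone and line 2 also at D5. Against the WT libraries of the same conditions, Atp2a1 element 8 differed by −48.0 in line 1 and −63.9 in line 2, but Jph2 element 13 by −1.54 and −50.1. Jph1 element 13 differed by −10.5 and −29.5, and Casq2 element 11 by −9.996 and −27.0. Atp2a2 element 2 differed by −5.86 in line 1 and 42.1 in line 2, with a pooled difference of 26.9 and a permutation adjusted p of 0.0704. On chromosomes 1, 2, 3, 5 and 7 the median difference of all shared regions was at most 4.82 points in either line. Without line 1, 6 member elements passed, 5 of them lower in KO, against 29.0% of the set. Without line 2, or without WT replicate 1 or 2, no member element and no region of the set passed (member elements at an unadjusted p under 0.05: 1, 4 and 3). Restricted to regions shared by the D0 and D1 libraries, 0 of 16 member elements passed, with 6 at an unadjusted p under 0.05.

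**Figure D5:**
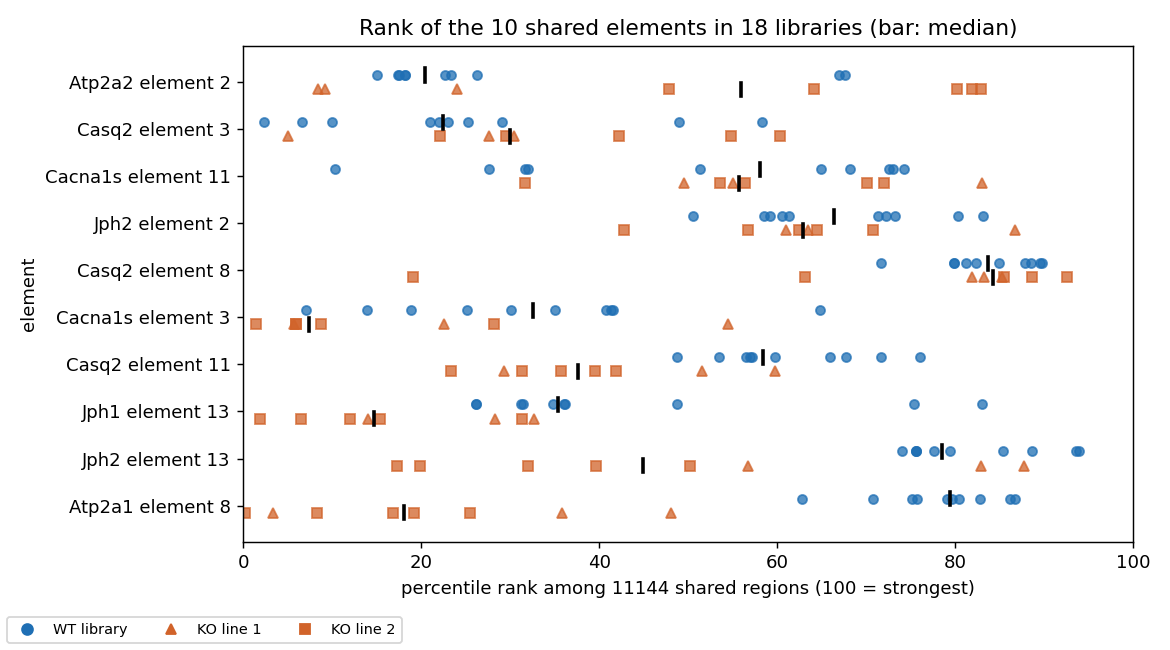
Percentile rank (x axis, 100 is the strongest) of the 10 member elements among 11144 regions called in 18 libraries, 1 row per element. Each point is 1 library: circles WT, triangles KO line 1, squares KO line 2, and the bar is the median. WT and KO points of Atp2a1 element 8 do not overlap, and KO line 1 lies apart from line 2 for Atp2a2 element 2 and Jph2 element 13.

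The comparison of D1 CTL with D0 asks which elements open on the first day. With 2 libraries a group it allows no p under 0.0556, so elements that separated the groups, with a peak in both libraries on 1 side and in none on the other, were counted. In WT 10 of 62 elements (16.1%) were gained, against 7.44% of all regions: element 4 of Cacna1s, elements 1, 4 and 6 of Casq2, elements 9 and 11 of Jph1, elements 7 and 10 of Jph2, element 1 of Ryr1 and element 3 of Trdn. Element 5 of Jph2 was lost (1.61%, against 2.63%). In KO 3 of 63 (4.76%, against 1.91%) were gained, namely Jph1 element 1, Ryr1 element 8 and Atp2a1 element 5, and all of these had peaks in both WT libraries at D0. None was lost (against 0.353%). With equal lists 3 of 33 (9.09%, against 6.37%) were gained in WT, namely Jph2 element 4 and elements 5 and 9 of Atp2a1, none of them among the 10, and 0 of 27 in KO (against 1.7%). Of 7 muscle differentiation markers, Myog, Acta1, Ckm and Myh3 had no call at a gene end at D0, and Mymk, Mymx and Tnnt3 had one in both WT libraries at D0. In KO, Tnnt3 was called in 7 libraries, Mymk in 4, Mymx in 3 and Acta1 in 1. Whether the KO and WT changes differ was not tested.

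Fewer elements were called at D5 than at D1, as for regions of the series in general. Against D1, 8 of 12 testable elements were called less often at D5 by permutation, against 66.2% of 16153 regions, and 11 of 12 at an unadjusted p under 0.05, against 80.1%. The median difference was −0.625 in the share of libraries for both. Those past the adjusted threshold were element 2 of Ryr1, element 8 of Cacna1s, elements 5 and 8 of Casq1, elements 9, 14 and 15 of Casq2 and element 4 of Jph1. Without the short lists, and likewise with equal lists, none passed, and no region of the series did (4 and 0 members at an unadjusted p under 0.05). Without WT replicate 1 or 2 the count was 0 too, with 3 and 6 at an unadjusted p under 0.05, and without either KO line it was 4. By gene 7 of 8 had fewer elements at D5, against 86.9% of genes (87.7% at an unadjusted p under 0.05). That count was 0 with equal lists and 3 without the short lists. The share of all genes in these settings, and of all regions without either KO line, is not given. These drops are therefore no result about the members. In the full WT lists, 2 of 64 elements (3.13%, against 0.409% of all regions) were gained at D5 CTL and 15 (23.4%, against 32.9%) lost, and at D5 MR 7 of 75 (9.33%, against 1.69%) were gained and 7 lost (9.33%, against 21.9%). Gained in both media were Atp2a1 element 3 and Jph2 element 12. With equal lists more WT elements were gained than lost. At D5 CTL 9 of 41 elements (22.0%) were gained against D1 CTL and 2 (4.88%) lost, against 10.4% and 11.3% of all regions. At D5 MR 6 of 38 (15.8%) were gained and 0 lost, against 8.94% and 9.12%. The starts of Cacna1s and Jph2 were among those gained in both media, though in the full lists both had peaks in the WT libraries of D1.

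Methionine restriction gave no call. No member element could reach the threshold in the full lists, and 0 of 3909 testable regions of the series passed it (5.88% at an unadjusted p under 0.05). By elements per gene 0 of 8 members passed, with 0 at an unadjusted p under 0.05, against 0 of 9568 genes (0.888% unadjusted). The differences ran from −0.625 for Ryr1 to 1.25 for Jph2. In WT at D5, 14 of 59 elements (23.7%) were in both MR libraries and neither CTL library and none the reverse, against 27.9% and 0.494% of all regions. The MR lists held 39538 and 39263 peaks and the CTL lists 22465 and 20847. With equal lists 2 elements (4.88%) were gained and 3 (7.32%) lost, against 8.22% and 7.08%. In WT at D1, Casq1 element 2 was gained (1.41%, against 10.2%), and in KO at D1, Atp2a1 element 1 was lost (1.61%, against 4%) and none gained (against 0.369%). With equal lists at D1 in WT, none was gained (against 7.77%) and Atp2a1 element 9 was lost (3.13%, against 6.77%).

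Counted by condition in equal lists, elements lost in KO made up 23.3% of those called at D0 (7 of 30), 21.6% at D1 CTL (8 of 37) and 23.5% at D1 MR (8 of 34), against 6.59%, 8.22% and 8.71% of all regions. Element 1 and element 4 of Jph1, element 6 of Cacna1s, element 3 of Atp2a2 and element 8 of Ryr1 were lost in all 3 of these. Elements gained in KO numbered 2 at each, which is 6.67%, 5.41% and 5.88% of those called, against 4.63%, 5.84% and 6.57% of all regions. Trdn element 3 was gained in all 3, Casq1 element 6 at D0 and D1 CTL, and Casq2 element 15 at D1 MR. At D5, where the KO groups include a short list, 20 of 38 (52.6%) were lost in CTL and 17 of 38 (44.7%) in MR, against 18% and 18.3%. In the full lists, where lengths differ, 5 of 54 (9.26%) were lost at D0, 7 of 72 (9.72%) at D1 CTL, 13 of 74 (17.6%) at D1 MR, 17 of 43 (39.5%) at D5 CTL and 33 of 57 (57.9%) at D5 MR, against 5.36%, 6.45%, 17.7%, 10.4% and 35.1% of all regions.

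Among 38 other genes of calcium handling, 33 could be tested for genotype and 8 had fewer called elements in KO, none more, against 14.8% and 0.885% of all genes. As for every gene of the series, none of these passed with 1 WT replicate or KO line left out, or with the replicate block. Among them were the channel subunit Cacnb1 (8.0 elements on average in WT, 3.5 in KO, adjusted p = 0.0377), the reticulum proteins Hrc (4.0 and 1.9, adjusted p = 0.0377), Jsrp1 (4.8 and 1.8, adjusted p = 0.0259) and Tmem38a (6.3 and 1.9, adjusted p = 0.0209), the tubule protein Bin1 (12.9 and 7.4, adjusted p = 0.0259), the release channel Itpr3 (9.2 and 4.4, adjusted p = 0.0410), and the mitochondrial uptake channel Mcu (8.5 and 5.4, adjusted p = 0.0457), all by the permutation test. The median difference over these genes was −1.5 elements, against −0.7 over all genes. Ryr2, the cardiac release channel, averaged 2.5 elements in WT and 5.1 in KO, with a permutation adjusted p of 0.257. For methionine restriction 0 of 30 passed, 0 of them at an unadjusted p under 0.05, and for D5 against D1, 29 of 33 had fewer elements at D5, against 86.9% of all genes.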

How the data were processed

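ATAC-seq peak lists of 20 libraries of C2C12 cells were used, 1 list per library. Per the labels' protocols, cells were tagmented with a commercial kit and the DNA was amplified and sequenced in read pairs. The build is GRCm38, per the submitters' processing notes. The aligner, peak caller, read filters and transposase shift are not given in the sources used here, so their effect on the lists was not tested. The authors deposited a fold enrichment (a ratio) and a −log10 q-value for each peak, and both are the authors' values. They were used to rank or filter peaks within a list.

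Peaks sharing at least 1 bp were merged into regions, and a region was called in a library with a peak overlapping by 1 bp or more (Python 3.11.15, numpy 2.4.6, pandas 2.3.3). Genes and promoter sequences come from RefSeq tables of GRCm38.p6. Labels were permuted within day and medium (genotype), genotype and day (MR) or genotype and medium (D5 against D1), in every arrangement, and Benjamini-Hochberg adjustment covered the features whose values allow p of 0.05. The smallest p of 2 libraries against 2 is 0.333. The test was checked on simulated calls drawn independently for each library. That check does not cover dependence between libraries of the same KO line. KO lines are the same in all conditions: deviations of same-line libraries correlated at 0.115 to 0.647 across regions, and of same-number WT libraries at −0.0296 to 0.0450, so only KO libraries are paired, by line.

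The members and all lists were chosen with earlier results of these data known. Named elements are those nearest a gene start within 1 kb, those called in the most libraries, and those past a threshold (at most 10 a comparison). Elements named only for equal lists, the shared ranks or counts of separated groups were chosen after their values were seen. Alternatives were equal lists of 20000 peaks, a −log10 q-value of at least 2, coverage of 50% of a region, a flank of 2 kb, libraries left out and the replicate block. A gene of the wider calcium handling list is not reported here by name.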

Additional observations from a re-analysis of the deposited data

Results flagged for a closer look

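In the full lists, the number of called Atp2a1 elements at D5 against D1 under methionine restriction differed in opposite directions by genotype. WT had 6 and 6 at D1 and 7 and 7 at D5, a change of +1, and KO had 3 and 3 at D1 and 0 and 1 at D5, a change of −2.5. In equal lists WT had 4 and 3 at D1 and 4 and 5 at D5, and KO had 1 and 1 and then 0 and 1. There the WT values of D1 and D5 met at 4, and KO line 2 had 1 on both days. The difference between the genotypes was not tested, and the KO line 1 list at D5 MR held 1881 peaks, against 48460 at D1 MR.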

How the results depend on the processing

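Genotype by elements passed for 9 member elements. The count was 15 of 24 at a −log10 q-value of at least 2, against 28.0% of regions. At 50% coverage it was 0, where no region of the series passed. It was 3 without the D5 libraries of KO line 1 and 0 without all D5 libraries (of 2 tested, against 18.8% of regions). With the replicate block it was 17 (of 18, against 66.6%), and with 1 WT replicate or KO line left out 0 to 11. By gene 6 passed, 0 with the replicate block, 0 without all D5 libraries (added after seeing the data) and 0 with any of them left out, where no gene of the series passed either. D5 against D1 passed for 8 elements, 0 with equal lists, 0 without the D5 libraries of KO line 1, 4 with the replicate block and 0 to 4 left out in turn. By gene 7 passed, 0, 3 and 4 under the same settings and 3 to 5 left out in turn. Only KO libraries are paired by the data: with the block on KO lines alone, 9 elements passed for D5 against D1. For the D5 counts with a block or with libraries left out, shares of all features are not given. Those counts are no result about the members. Shared ranks passed for 4 elements, 0 in D0 and D1 libraries with or without the replicate block, and 0 to 6 left out in turn. Methionine restriction stayed at 0 in every setting run, and without the D5 libraries it was not run, since no region allows p of 0.05. Casq1 element 5 at D5 reversed with equal lists (0.125 in share of libraries, against −0.625). Elements separating groups, gained or lost, were summed over pairs of groups, so the same element can count more than once. The sums were 14 for D1 CTL against D0, 3 with equal lists and 8 at 50% coverage, and 146 over the other pairs of groups, 96 with equal lists. Of single elements, 67 of 99 genotype values, 52 of 80 for D5 and 16 of 60 shared ranks lost their call in an alternative without changing direction. The lists hold no read counts, so depth limits every absence: no call does not show closed chromatin.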
